A study of Mus musculus with 12 samples.

Results

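Of 38924 genes in the count tables, 10 genes of fat absorption and lipoprotein assembly were taken by gene symbol: *Apoa1*, *Apoa4*, *Apob*, *Apoc3* and *Apon*, which encode apolipoproteins, *Mttp*, which loads lipid onto *Apob*, *Fabp1* and *Fabp2*, which bind fatty acids inside the cell, and *Cd36* and *Npc1l1*, which take up fatty acids and cholesterol. All 10 were found and all 10 reached 10 counts in 3 or more mice, as did 20311 genes in all. RNA-Seq had been carried out on proximal colonic mucosa of 6 female APC Min/+ mice and 6 female WT mice, C57BL/6 and 6 weeks old. The APC Min/+ mice carry the Min nonsense allele of *Apc* on 1 of the 2 copies in every cell of the body, no mouse received a treatment, and the genotypes were housed in separate cages, so that cage and genotype cannot be told apart. The samples were pieces cut from the colon and held several tissues, with 5 smooth muscle markers at a summed level of 3773 to 5721 CPM (counts scaled to the library total and its TMM factor) in APC Min/+ mice and 3959 to 5061 CPM in WT mice. Of these, *Des*, *Cnn1* and *Actg2* were higher in APC Min/+ mice at an unadjusted p under 0.05 in edgeR, with FDR = 0.908 for each. Among all genes tested, 3.46% were higher at that level. The APC Min/+ libraries M10_2 and M13_1, described below, were the 2 highest for *Des* and *Cnn1*. The median log2 fold change of the 5 markers, APC Min/+ minus WT, was 0.41, and 0.29 without these libraries.

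Dietary fat enters the absorptive cell of the small intestine as fatty acids and monoglycerides, is carried by binding proteins, built back into triglyceride and packed around *Apob* into chylomicrons, with *Mttp* doing the loading. The smaller apolipoproteins ride on the particle and direct its later handling, and *Npc1l1* takes up sterols at the brush border. This machinery is known to be strongest in the jejunum and to decline along the gut, while the colon meets little dietary fat. In a bulk sample, fewer cells of a type and less RNA per cell cannot be told apart.

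Total counts on genes ranged from 50313805 to 197914821 per mouse, so that 3 counts stood for between 0.0151 and 0.0560 CPM. *Apc* itself ranged from 164 to 216 CPM among APC Min/+ and from 154 to 239 CPM among WT mice, which does not check the labels because counts per gene do not separate a point-mutated allele. 2 of the APC Min/+ libraries, those labelled M10_2 and M13_1, stood apart from the others. The sum of 5 posterior *Hox* genes, markers of the distal end of the colon, reached 473 CPM in library M10_2 and 600 CPM in library M13_1, against 7.34 to 13.7 CPM in the other 10 mice. Both libraries were the highest for 4 of the 5 genes. The exception, *Hoxd11*, was at 45.6 CPM in M13_1 and at 4.84 CPM in M10_2, the lowest of the 12 mice. *Hoxb13* alone was at 378 and 275 CPM in these libraries and at most 0.744 CPM elsewhere, which goes against the label of proximal colon. The main log2 fold changes between genotypes are therefore given with both libraries and without them. Summed hepatocyte markers, mostly *Ttr*, were at 42.5 and 45.7 CPM in M10_2 and M13_1 against 10.7 CPM or less elsewhere, and of 6 acinar markers *Cela1* alone was high there, at 264 and 269 CPM against 32.0 CPM or less, while the other 5 were at 0.0606 CPM or less in both. The markers of colonic epithelium were present in all 12 mice. Their summed level was 10445 CPM in M10_2, 11607 CPM in M13_1 and 22392 to 45943 CPM in the other 10. These 2 libraries were the lowest for 3 of the 9 markers, among them *Car1* at 965 and 2539 CPM against at least 14621 CPM elsewhere. They were the highest for 1, *Cdh1*, at 1490 and 1199 CPM against 871 CPM or less.

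The upstream sequences of 5 of the genes are shown because they set the closest relatives side by side: the fatty acid binding proteins *Fabp1* and *Fabp2*, the neighbouring *Apoa1* and *Apoa4*, and *Apon*. They are from RefSeq on GRCm38.p6, forward strand, 5′ to 3′, cut off where the GENCODE M21 gene begins. Capitals mark any of 6 motifs searched on both strands in the 250 bases before the RefSeq start. They were the core motif of nuclear receptors, AGGTCA; the motifs of the receptor HNF4, written CAAAGTCCA or, with the core motif inside it, CAAAGGTCA; the motif of the GATA factors, AGATAA; that of the CDX factors, which is TTTATG; and the promoter element known as the TATA box, here TATAAA. On the opposite strand the core motif reads TGACCT, while the motif of the CDX factors reads CATAAA.
Fabp1, chr6:71199629-71199826: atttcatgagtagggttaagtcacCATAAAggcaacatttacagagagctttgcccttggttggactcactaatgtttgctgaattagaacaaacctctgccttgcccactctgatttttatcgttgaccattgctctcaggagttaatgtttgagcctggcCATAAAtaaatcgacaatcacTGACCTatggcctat
Fabp2, chr3:122894822-122895071: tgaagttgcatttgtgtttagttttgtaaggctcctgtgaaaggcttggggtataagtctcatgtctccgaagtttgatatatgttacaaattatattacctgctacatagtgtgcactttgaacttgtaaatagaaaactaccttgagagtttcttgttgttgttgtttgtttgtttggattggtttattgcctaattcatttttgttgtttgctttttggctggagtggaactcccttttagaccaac
Apoa1, chr9:46228380-46228579: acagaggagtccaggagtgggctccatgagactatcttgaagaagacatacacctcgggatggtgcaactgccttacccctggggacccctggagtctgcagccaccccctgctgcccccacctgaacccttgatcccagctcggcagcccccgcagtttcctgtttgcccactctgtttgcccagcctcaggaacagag
Apoa4, chr9:46240594-46240695: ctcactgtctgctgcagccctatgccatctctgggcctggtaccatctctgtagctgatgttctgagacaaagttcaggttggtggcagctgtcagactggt
Apon, chr10:128253881-128254095: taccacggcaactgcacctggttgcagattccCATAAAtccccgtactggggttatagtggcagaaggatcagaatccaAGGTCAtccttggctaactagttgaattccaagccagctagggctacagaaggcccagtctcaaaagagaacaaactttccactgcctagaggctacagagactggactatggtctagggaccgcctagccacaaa

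*Fabp1* held 3 of the 6 motifs in its 250 bases: the CDX motif at -226 and -88, the core motif at -67 and -9, and a TATA box at -30, all counted from the RefSeq start. Of these, -30 and -9 lie past the stretch printed. *Fabp2* held none of the 6. *Apon* held the CDX motif at -218 and the core motif at -171. *Apoa1*, *Apoa4* and *Mttp* held none, *Apob* held a TATA box at -60, *Npc1l1* a core motif at -100, and *Cd36* a CDX motif at -232 that overlaps a core motif at -228. For *Cd36* and *Mttp* the 250 bases lie wholly inside the GENCODE gene, so they are upstream of the RefSeq start only. *Apoc3* had no entry, so 9 of the 10 genes were matched. Among 32851 promoters of the same length, 14.0% held the core motif, 10.8% the CDX motif, 12.4% the TATA box, 9.99% the GATA motif, and 0.384% and 0.426% the HNF4 motifs. A match is a description of the letters and not evidence that a factor binds there.

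The levels of the 10 genes differed widely. On the RPKM scale, which divides by gene length and allows genes to be compared, *Fabp2* was at 957 ± 294 (SD, n = 6) in WT mice, which made it the 37th most abundant of all genes there. *Apob* followed at 30.6 ± 6.02 RPKM and *Cd36* at 15.3 ± 5.74 RPKM. The ranges of these 3 genes did not overlap, from 673 to 1349 RPKM for *Fabp2*, from 26.4 to 42.4 RPKM for *Apob* and from 8.56 to 25.0 RPKM for *Cd36*. *Apoa1* was at 7.47 ± 4.56 RPKM and overlapped with *Cd36*. A middle set was formed by *Mttp* at 1.37 ± 0.490 RPKM, *Fabp1* at 1.33 ± 0.601 RPKM, *Npc1l1* at 0.928 ± 0.4002 RPKM and *Apoa4* at 0.582 ± 0.362 RPKM, whose ranges all overlapped with their neighbours in that order. *Apoc3* was at 0.179 ± 0.104 RPKM, and its range from 0.0392 to 0.350 overlapped with that of *Apoa4*. *Apon* was lowest at 0.0120 ± 0.00784 RPKM, with a highest WT value of 0.0246 RPKM, below the lowest of *Apoc3*. The 2 fatty acid binding proteins stood far apart in the order, since the highest *Fabp1* value in a WT mouse was 2.53 RPKM and the lowest *Fabp2* value was 673 RPKM.

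**Figure D1:**
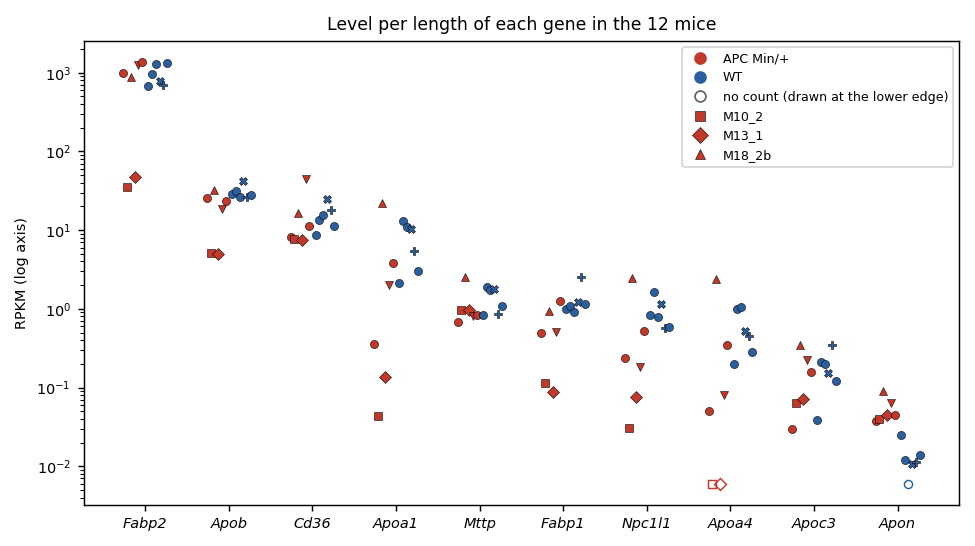
RPKM (log axis) of each gene in each of the 12 mice, ordered by the mean over all mice, with APC Min/+ mice in red and WT mice in blue. Fabp2 stands highest at 673 to 1349 RPKM in the WT mice and Apon lowest, and the squares and diamonds of M10_2 and M13_1 lie far below the other mice for Fabp2 and Apob.

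No gene of the list passed the test between genotypes. In edgeR's quasi-likelihood test over 20311 genes, 0 of the 10 had an FDR under 0.05 with a change of at least 2-fold, against 0% of all genes tested, and the lowest FDR of any gene was 0.908. At an unadjusted p under 0.05, *Fabp1* was lower and *Apon* was higher in APC Min/+ mice, against 1.81% of all genes lower and 3.46% higher. The log2 fold change, given throughout as APC Min/+ minus WT, was below 0 for 8 of the 10 and for 51.6% of all genes. Its median over the 10 was -0.37, beside -0.0077 over all genes tested. Without M10_2 and M13_1 the median over the 10 was -0.076, beside -0.0064 over all genes, and again 0 of the 10 passed, against 0% of 19978 genes tested. With DESeq2, 0.133% of genes passed, or 27 genes, and none of the 10 was among them.

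**Figure D2:**
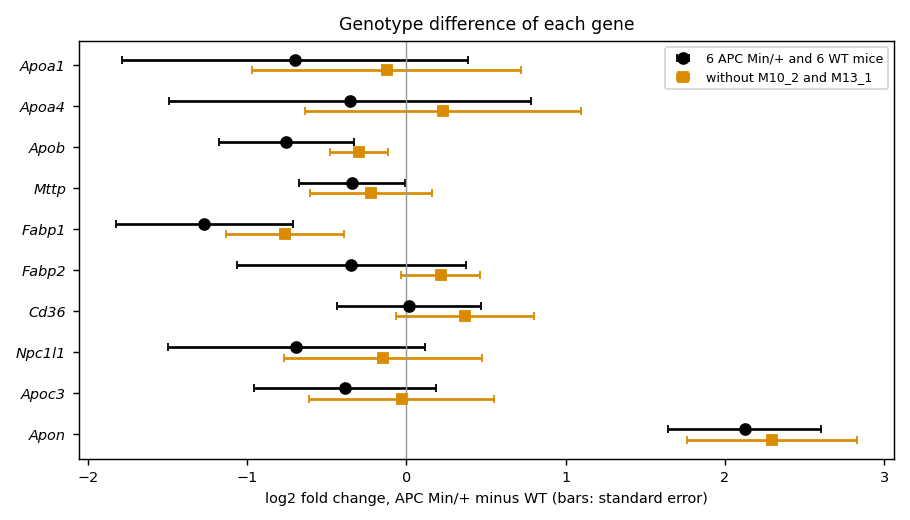
Log2 fold change of each gene between genotypes, APC Min/+ minus WT, with its standard error, from all 12 mice (black circles) and without M10_2 and M13_1 (orange squares). Apon lies at 2.12 and 2.296, Fabp1 at -1.27 and -0.76, and the values of Apoa4 and Fabp2 change sign between the 2 fits.

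*Fabp2*, the intestinal fatty acid binding protein, split the APC Min/+ mice. It ranged from 32.8 to 1388 CPM with a median of 897 CPM in these mice, and from 610 to 1437 CPM with a median of 846 CPM in the WT mice. M10_2, with 32.8 CPM, and M13_1, with 41.8 CPM, were the lowest, far under every other mouse, while the other 4 APC Min/+ mice, from 820 to 1388 CPM, lay within the WT range. Between genotypes the log2 fold change came to -0.35 (standard error 0.72, FDR = 0.932 in edgeR) and turned to 0.22 (standard error 0.25, FDR = 0.9999) without both libraries. *Fabp2* lies on chromosome 3 from 122895072 to 122899506 and overlaps another annotated gene, 4933405D12Rik, so part of its counts is uncertain. The sources used here do not give the strand setting of the counting.

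*Apob*, the structural protein of the chylomicron, showed the same 2 low mice on a milder scale. It ranged from 63.1 to 445 CPM with a median of 302 CPM in APC Min/+ mice and from 373 to 618 CPM with a median of 403 CPM in WT mice. M13_1 at 63.1 CPM and M10_2 at 67.6 CPM were lowest, and 5 of the 6 APC Min/+ mice lay below all 6 WT mice, the exception being M18_2b at 445 CPM. This gave a log2 fold change of -0.75 (its standard error 0.42, FDR = 0.908 in edgeR). Without M10_2 and M13_1 the mean of the APC Min/+ mice was 354 ± 75.9 CPM (SD, n = 4), against 434 ± 93.5 CPM (SD, n = 6) among the WT, and the difference on the log2 scale was -0.30 (standard error 0.18, FDR = 0.9999). *Mttp*, the transfer protein that lipidates *Apob*, did not follow it in these libraries. It ranged from 3.05 to 10.8 CPM with a median of 3.87 CPM in APC Min/+ mice and from 3.51 to 8.36 CPM with a median of 6.58 CPM in WT mice, and M10_2 at 4.09 CPM and M13_1 at 3.92 CPM ranked 6th and 7th of 12. The highest mouse was M18_2b, and the groups overlapped. Its log2 fold change stood at -0.34 (standard error 0.33, FDR = 0.910), and -0.22 (standard error 0.38, FDR = 0.9999) without both libraries. *Mttp* overlaps 2 other annotated genes, Gm43691 and *Trmt10a*, so part of its counts is uncertain.

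*Apoa1* and *Apoa4*, the apolipoproteins of high density lipoprotein and of the chylomicron surface, lie in 1 cluster on chromosome 9 with *Apoc3* between them, over 14.9 kb from the start of *Apoa1* to the end of *Apoa4* (46228580 to 46243459). *Apoa1* ranged from 0.0505 to 26.8 CPM with a median of 1.47 CPM in APC Min/+ mice, and from 2.47 to 15.9 CPM with a median of 10.04 CPM in WT mice. The highest and the lowest mouse of the study, M18_2b and M10_2, were both APC Min/+, a ratio of 531 between them, and 3 APC Min/+ mice lay below all WT mice. For *Apoa1* the log2 fold change came to -0.70 (standard error 1.09, FDR = 0.919 in edgeR). *Apoa4* ranged from 0 to 4.19 CPM with a median of 0.120 CPM in APC Min/+ mice and from 0.336 to 1.98 CPM with a median of 0.904 CPM in WT mice. It had no count in M10_2 and M13_1, which at 3 counts allows up to 0.0151 and 0.0331 CPM, counting error only, and M18_2b was again highest. All 10 counts of *Apoa4* above 0 were even numbers, so that 2 counts may be 1 fragment, and these limits would then be too low. For *Apoa4* the log2 fold change came to -0.36 (standard error 1.14, FDR = 0.960). Without M10_2 and M13_1 it was -0.12 (standard error 0.84) for *Apoa1* and 0.23 (standard error 0.87) for *Apoa4*, with FDR = 0.9999 for both. *Apoa4* overlaps 2 annotated genes, Gm47528 and Gm10680.

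*Npc1l1*, the sterol transporter of the brush border, followed *Apoa1* across the mice. It ranged from 0.131 to 10.9 CPM with a median of 0.946 CPM in APC Min/+ mice and from 2.55 to 7.13 CPM with a median of 3.58 CPM in WT mice. M10_2 and M13_1 were lowest, M18_2b was highest, and all 5 APC Min/+ mice other than M18_2b lay below all 6 WT mice. Its log2 fold change came to -0.69 (standard error 0.81, FDR = 0.911 in edgeR) and -0.15 (standard error 0.62, FDR = 0.9999) without M10_2 and M13_1. *Fabp1*, *Apob* and *Npc1l1* were the 3 genes of the 10 with at least 5 of 6 APC Min/+ mice below all 6 WT mice in CPM, a pattern held by 0.537% of all genes tested. M10_2 and M13_1 were among the low mice for all 3. For *Fabp1* the pattern turned on the scaling. M18_2b and the WT mouse M16_1 both had 50 counts, at 0.501 and 0.522 CPM but at 0.931 and 0.922 RPKM. For *Apob* the gap was narrow, with M8_2 at 366 CPM and the WT mouse M17_1 at 373 CPM.

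A single library weighed on these differences. M18_2b, an APC Min/+ mouse, was highest of all 12 for *Apoa1*, *Apoa4*, *Mttp* and *Npc1l1*. Leaving it out moved the log2 fold change to -2.57 for *Apoa1*, -2.67 for *Apoa4*, -2.15 for *Npc1l1* and -0.74 for *Mttp*, and no FDR went under 0.05. This library also held the highest level of *Fabp6*, the ileal bile acid binding protein, at 50.7 CPM, and the highest summed level of 5 Paneth cell markers, at 45.3 CPM against 6.39 to 33.3 CPM in the other mice. Among these, the defensin gene *Defa24* was at 11.8 CPM in M18_2b, at 6.27 CPM in the WT mouse M19_1 and at most 0.562 CPM in the rest. The acinar enzyme gene *Pnlip* was at 2.53 CPM in M18_2b, 1.23 CPM in M19_1 and at most 0.0606 CPM elsewhere. The summed level of 10 small intestinal enterocyte markers ranked 3rd in M18_2b, at 675 CPM in a range from 286 to 944 CPM. These markers, *Fabp6* among them, did not move together in M18_2b. *Anpep* at 101 CPM and *Treh* at 1.18 CPM were also highest of the 12 mice there. *Slc10a2* at 172 CPM and *Lct* at 0.120 CPM were not, with 382 and 0.479 CPM in the WT mouse M17_1. The part of these cells in the result was not tested. The defining hepatocyte marker *Alb* was at 0.381 CPM in M18_2b and at 0.693 CPM or less in the other mice apart from M10_2 and M13_1, where it was at 2.62 and 1.52 CPM.

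**Figure D3:**
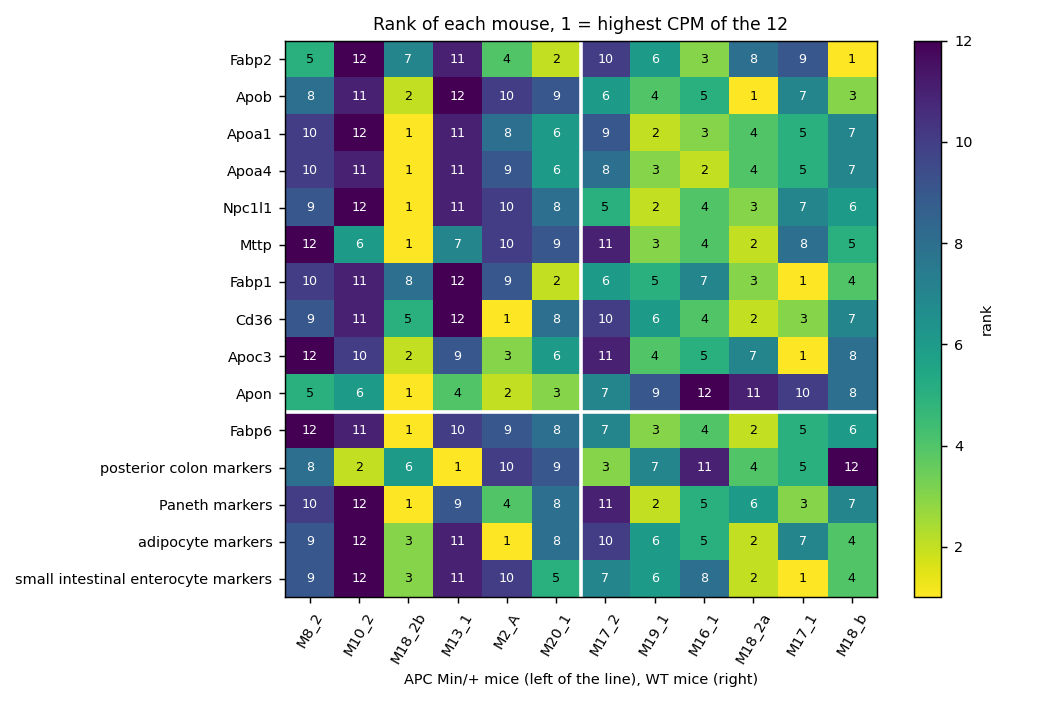
Rank of each mouse from 1 (highest CPM of the 12) to 12, for the 10 genes, for Fabp6 and for the summed level of 4 marker lists, with APC Min/+ mice on the left and WT mice on the right. M18_2b holds rank 1 for Apoa1, Apoa4, Npc1l1, Mttp, Apon, Fabp6 and the Paneth markers, and M10_2 and M13_1 hold the lowest ranks for Fabp2, Apob, Apoa1, Apoa4, Npc1l1, Fabp1 and Cd36.

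*Fabp1*, the liver-type fatty acid binding protein that the small intestine also makes, was low in every mouse. It ranged from 0.0442 to 0.728 CPM with a median of 0.280 CPM in APC Min/+ mice and from 0.522 to 1.42 CPM with a median of 0.653 CPM in WT mice. M13_1 and M10_2 were lowest, the WT mouse M17_1 was highest, and the groups overlapped through M20_1 at 0.728 CPM. On the log2 scale the fold change came to -1.27 (standard error 0.56), with an unadjusted p of 0.0393 and FDR = 0.908 in edgeR. It was -0.76 (standard error 0.37, FDR = 0.9999) without M10_2 and M13_1, and -0.98 without M17_1. M17_1 also had the highest summed level of small intestinal enterocyte markers, at 944 CPM, the highest sucrase-isomaltase (*Sis*) at 295 CPM, and the lowest aquaporin gene *Aqp8* at 4.80 CPM, where the other mice had between 111 and 552 CPM. The enterocyte list did not move as one, since *Anpep* at 9.08 CPM and *Rbp2* at 15.5 CPM were lowest of the 12 mice in M17_1. Its mitochondrial share of counts was the highest, at 12.7% against 8.46% or less in the other mice, and M10_2 and M13_1 had the lowest shares, at 4.35 and 4.92%. The part of these cells or of the mitochondrial share in the level of *Fabp1* was not tested.

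*Cd36*, a fatty acid translocase of enterocytes that fat, endothelium and macrophages also express, had a mean of 62.4 ± 57.7 CPM in APC Min/+ mice and 61.7 ± 24.2 CPM in WT mice (SD, n = 6). It ranged from 26.9 to 177 CPM with a median of 39.3 CPM in APC Min/+ mice and from 31.6 to 103 CPM with a median of 57.8 CPM in WT mice. The highest mouse was M2_A, an APC Min/+ mouse, and the next was the WT mouse M18_2a. The log2 fold change came to 0.017 (standard error 0.45, FDR = 0.996 in edgeR), which became -0.61 without M2_A and 0.37 (standard error 0.43, FDR = 0.9999) without M10_2 and M13_1. The summed level of 8 adipocyte markers was 867 CPM in M2_A and 474 CPM in M18_2a, the highest and next highest of the 12, and lowest in M10_2 and M13_1 at 37.9 and 58.7 CPM. The adipocyte list as a whole ranged from 37.9 to 867 CPM in APC Min/+ mice and from 103 to 474 CPM in WT mice, and 7 of its 8 genes were lowest in M10_2 and M13_1. The defining adipocyte gene *Adipoq* was at 98.7 CPM in M2_A. Summed endothelial markers were at 79.5 to 150 CPM and 70.9 to 140 CPM in the 2 genotypes, and macrophage markers at 77.2 to 233 CPM and 116 to 206 CPM. The part of these cells in the level of *Cd36* was not tested.

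**Figure D4:**
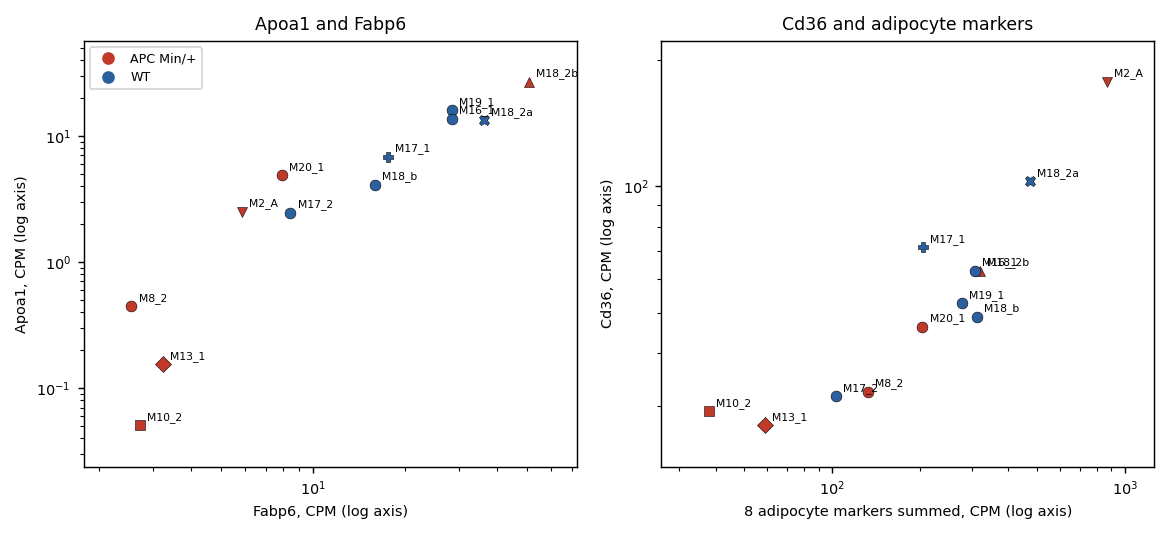
Left, Apoa1 against Fabp6 in the 12 mice, CPM on log axes. Right, Cd36 against the summed level of 8 adipocyte markers, CPM on log axes. M18_2b lies at the top right of the left plot, at 26.8 and 50.7 CPM, and M2_A at the top right of the right plot, at 177 and 867 CPM.

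The genes whose pattern was most like each of the 10 were taken by Pearson's r of log2(CPM + 0.5) over the 12 mice, among 14892 genes with a mean of at least 1 CPM. For *Apoa1* they were *Fabp6* (r = 0.967), the neutral amino acid transporter gene *Slc6a19* (0.929) and the chemokine gene *Ccl25* (0.924), and *Fabp6* stayed at 0.966 over the 10 mice without M10_2 and M13_1. *Apoa4* was most like the immunoglobulin gene *Iglv1* (0.932), then *Fabp6* (0.929) and *Slc6a19* (0.903). *Npc1l1* was most like *Fam43a* (0.932), then the aminopeptidase gene *Xpnpep2* (0.925) and *Slc6a19* (0.921). *Mttp* was most like the anion exchanger gene *Slc26a6* (0.895), then the GATA factor gene *Gata5* (0.879, and 0.958 over 10 mice) and *Fabp6* (0.872). *Cd36* was most like *Mrap*, *Abcd2* and *Car5b* at 0.981, 0.977 and 0.976, and these were 0.980, 0.974 and 0.974 over 10 mice. *Fabp2* was most like *H2-Q2*, *Sct* and *Pparg* at 0.993 or 0.994, which fell to between 0.854 and 0.871 over 10 mice. Among pairs of the 10 genes over 10 mice, *Apoa1* had r = 0.932 with *Apoa4*, 0.907 with *Mttp* and 0.859 with *Npc1l1*, while *Apob* and *Fabp2* had r = 0.919 over 12 mice and -0.334 over 10. These points share libraries and their depths, and are a description.

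*Apoc3*, an inhibitor of lipoprotein lipase that sits between *Apoa1* and *Apoa4*, was near the limit of counting. It ranged from 0.0308 to 0.341 CPM with a median of 0.116 CPM in APC Min/+ mice and from 0.0374 to 0.359 CPM with a median of 0.184 CPM in WT mice, on 205 counts in all. M8_2 was lowest, M17_1 was highest, and the groups overlapped. Its log2 fold change came to -0.38 (standard error 0.57, FDR = 0.917 in edgeR) and -0.029 (standard error 0.58, FDR = 0.9999) without M10_2 and M13_1.

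*Apon*, apolipoprotein N, was the only gene of the 10 whose groups did not overlap. It ranged from 0.0606 to 0.140 CPM with a median of 0.0714 CPM in APC Min/+ mice and from 0 to 0.0374 CPM with a median of 0.0188 CPM in WT mice. Every APC Min/+ mouse lay above every WT mouse, a pattern held by 0.0443% of all genes tested. As raw counts this was 12 in M8_2, 12 in M10_2, 14 in M18_2b, 6 in M13_1, 10 in M2_A and 6 in M20_1, against 0 in the WT mouse M16_1 and 2 in each of the other 5 WT mice. On the log2 scale the fold change came to 2.12 (standard error 0.48), with an unadjusted p of 0.000667 and FDR = 0.908 in edgeR, and 2.296 (standard error 0.54, FDR = 0.9999) without M10_2 and M13_1. The study had called *Apon* higher in APC Min/+ mice with edgeR, at an FDR under 0.05 and at least 2-fold. It does not name the edgeR test it used, and *Apon* did not reach that FDR here. *Apon* had thus been picked in these same mice, and it passed the filter on counts through the APC Min/+ mice alone. Its difference is therefore a description and no independent test.

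The size of that difference rests on few molecules. All 6 WT mice were at or below 2 counts, under the floor of 3, and the 6 APC Min/+ mice held 60 counts in all against 10. Divided by total counts, this was a ratio of 4.58 with an exact 95% interval from 2.33 to 10.04, which covers counting error only, and that only if each count is independent. The interval pools the mice of each genotype, leaves out the spread between them and is no test between genotypes. All 11 counts above 0 were even numbers. Even numbers made up 75.7 to 81.2% of counts from 1 to 20 in each library, 65.3 to 74.2% from 21 to 100 and 50.6 to 52.6% from 1000 to 100000, so that 2 counts may be the 2 ends of 1 fragment, although the sources used here do not give that setting. With all counts halved, the totals were 30 and 5 and the interval ran from 1.76 to 15.1.

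**Figure D5:**
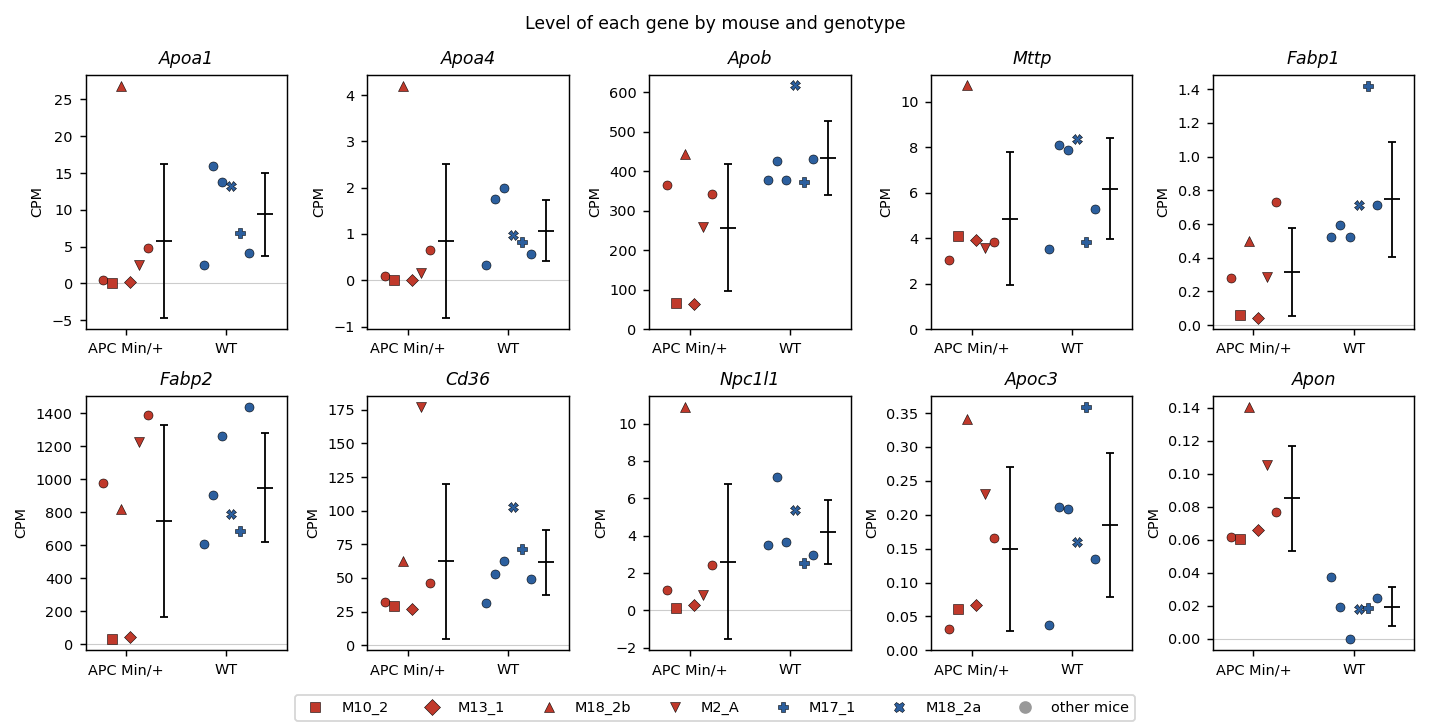
CPM of each of the 10 genes in each mouse, by genotype, each with its own axis, and the mean with its SD beside each group (n = 6). Apon is the only gene whose groups do not overlap, with 0.0606 to 0.140 CPM in APC Min/+ mice and 0 to 0.0374 CPM in WT mice, while single mice lead Apoa1, Apoa4, Mttp, Npc1l1 and Cd36.

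Set against its relatives, *Apon* was the rarest of the 5 apolipoprotein genes of the list in WT mice. Its neighbour on chromosome 10, *Apof*, the inhibitor protein of cholesteryl ester transfer, lies 12.8 kb beyond its end and had 52 counts in all, in 7 of the 12 mice, with 22 at most in APC Min/+ mice and 2 at most in WT mice. *Apof* was rarer than *Apon*, at a mean of 0.00333 against 0.0120 RPKM in WT mice, and did not reach the filter on counts. Its highest CPM values, 0.177 in M13_1 and 0.111 in M10_2, were in the 2 libraries with high posterior *Hox* genes, which were not the highest for *Apon*. *Apoc4* was also below the filter, with 32 counts in all. *Apoa5*, next to the *Apoa1* cluster, held 180 counts, none of them in M10_2 and M13_1, with 22 at most in APC Min/+ mice and 50 at most in WT mice. *Apom* held 103 counts, with 21 at most in APC Min/+ mice and 10 at most in WT mice. *Apoe*, the most abundant of the other apolipoprotein genes, was at 75.2 RPKM in APC Min/+ mice and 71.7 RPKM in WT mice.

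The other genes of fat absorption were described from 6 lists, and 0 genes passed in any of them. Of 26 genes of fat uptake, triglyceride synthesis and chylomicron assembly, 8 had a log2 fold change above 0 and 18 below, with a median of -0.11 that became 0.096 without M10_2 and M13_1. The most abundant of these, the disulfide isomerase *P4hb*, an *Mttp* subunit, was at 678 ± 127 CPM in APC Min/+ mice and 724 ± 76.7 CPM in WT mice (SD, n = 6). Its log2 fold change was -0.096, and 0.060 without the 2 libraries, which were the lowest for *P4hb*. Of 18 genes of sterol uptake and efflux, 1 was lower at an unadjusted p under 0.05, the lipoprotein receptor *Vldlr*, at 34.5 ± 5.92 against 44.6 ± 5.84 CPM (SD, n = 6), with FDR = 0.908 in edgeR. The median of that list was 0.073, and 0.019 without the 2 libraries, which were the lowest for *Vldlr*. Its log2 fold change moved from -0.37 to -0.26 without them, with an unadjusted p of 0.0645 in edgeR. Of 16 other apolipoproteins and their partners, 14 were tested, with a median of 0.022 (0.066 without the 2 libraries), and 1 was higher at that level, the lipase cofactor *Apoc2*, at 2.33 ± 1.34 against 1.21 ± 0.452 CPM, with FDR = 0.908. M13_1 and M10_2 were highest for *Apoc2*, and its log2 fold change moved from 0.94 to 0.34 without them, with an unadjusted p of 0.322 in edgeR.

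Of 12 other fatty acid and acyl-CoA binding proteins, 9 were tested, with a median of -0.12 that became 0.073 without the 2 libraries. The adipocyte form *Fabp4* was at 85.6 ± 101 CPM in APC Min/+ mice and 90.8 ± 39.7 CPM in WT mice, and *Fabp6* at 12.2 ± 18.99 and 22.5 ± 10.18 CPM (SD, n = 6). The log2 fold change of *Fabp4* was -0.086, and 0.37 without the 2 libraries, which were the lowest for *Fabp4*. For *Fabp6* it was -0.89, and -0.43 without them. Of 24 regulators, 23 were tested with a median of 0.13, and 0.11 without the 2 libraries. The most abundant, the nuclear receptor *Hnf4a*, was at 766 ± 148 and 701 ± 211 CPM, while the bile acid receptor *Nr1h4* was at 98.7 ± 37.0 and 142 ± 28.3 CPM with FDR = 0.908 in edgeR. The log2 fold change of *Hnf4a* was 0.13, and 0.12 without the 2 libraries. M10_2 and M13_1 were lowest for *Nr1h4*, whose log2 fold change moved from -0.52 to -0.22 without them (FDR = 0.9999). Of 15 genes known to respond to peroxisome proliferator receptors, 14 were tested, with a median of -0.17 that became 0.051 without the 2 libraries.

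M10_2 and M13_1 were the lowest mice for 7 of the 10 genes, all but *Mttp*, *Apoc3* and *Apon*, beside 12.2% of all genes tested. The same held for 10 of 14 genes of the peroxisome proliferator list, 9 of 26 of fat uptake and assembly, 5 of 9 other binding proteins, 7 of 23 regulators, 4 of 14 other apolipoproteins and 2 of 18 sterol genes. In the other direction, both were the highest mice for 0 of the 10 genes, 4 of 18 sterol genes, 4 of 23 regulators, 1 of 26 genes of fat uptake and assembly, 1 of 14 other apolipoproteins and 11.8% of all genes tested. *Pparg*, a receptor of fatty acids, was at 35.2 and 41.9 CPM in M10_2 and M13_1, against at least 126 CPM in the other mice. The part of the position along the colon in these levels was not tested, and both libraries are of 1 genotype.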

How the data were processed

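RNA from proximal colonic mucosa of 6 APC Min/+ and 6 WT mice was sequenced in paired ends. Per the labels, the authors aligned reads with STAR 2.3.0 to GRCm38.p2 and counted them with featureCounts. They deposited unnormalized counts per gene with gene lengths, 1 table per mouse, for 38924 Ensembl genes, and the annotation release, strand setting and treatment of read pairs are not given in the sources used here. Symbols and positions came from GENCODE M21 (GRCm38), which named 37607 genes. All counts were used as deposited.

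Genes that reached 10 counts in 3 or more mice were tested with edgeR 4.0.16 (TMM, quasi-likelihood, Benjamini-Hochberg FDR over 20311 genes, R 4.3.3), with DEGs at an FDR under 0.05 and at least 2-fold. Standard errors are the log2 fold change divided by the square root of F. RPKM used total counts and the deposited lengths. TMM factors lay between 0.906 and 1.10. Samples are different mice by label, and no 2 libraries agreed within sampling noise (lowest chi-square per degree of freedom 16.6 over 66 pairs). DESeq2 1.42.0, limma 3.58.1, other filters and normalizations, and leaving out libraries were alternatives, and the scripts were tested on simulated data.

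The 10 genes and the lists were chosen with earlier results of these data known. Of the lists, genes are named that pass the threshold, that are among the 3 most abundant by RPKM, or that have the lowest p. For each of the 10, the 3 genes most alike over the 12 mice could be named. *Fabp6*, *Pparg*, *Apof*, *Apoa5*, *Apoc4*, *Apom* and single marker genes were named after their values were seen. The paper states that the mice arrived in 3 shipments and that the RNA-Seq mice were drawn from all 3. The labels give no batch or shipment for any mouse, so no comparison within batches was made. The part of shipment in the spread between mice was not tested.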

Additional observations from a re-analysis of the deposited data

Results flagged for a closer look

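Of 20 sets of 6 mice tested (10 genes in each genotype), 7 had a mouse far from the others by Dixon's test, 95% level. Chance flags about 1 in 20 only where values are normally distributed. The test used CPM without a log, and some sets were skewed, such as *Apoa1* at 0.0505 to 26.8 CPM in APC Min/+ mice. That rate may therefore not apply here, and the 7 are a description. The cause was not tested for any of the 7. M18_2b, an APC Min/+ mouse, was far above the other 5 for *Apoa1* (26.8 CPM, next 4.88), *Apoa4* (4.19 CPM, next 0.664), *Mttp* (10.8 CPM, next 4.09) and *Npc1l1* (10.9 CPM, next 2.43), the gap being between 0.786 and 0.866 of the group's range. These 4 values belong to 1 library and are not independent. M2_A, an APC Min/+ mouse, was far above the others for *Cd36* (177 CPM, next 62.9). Among the WT mice, M18_2a stood above the others for *Apob* (618 CPM, next 433) and M17_1 for *Fabp1* (1.42 CPM, next 0.713).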

How the results depend on the processing

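The number of genes called was 0 in the quasi-likelihood test, 27 with DESeq2 (1316 at an unadjusted p under 0.05) and 12 with edgeR's exact test (1083), and 0 in each of the 12 fits that left out 1 mouse. None of the 10 genes was called under any setting, the FDR of *Apon* ranging from 0.0834 (exact test) to 0.9999. Directions reversed for *Apoa4* (0.23) and *Fabp2* (0.22) without M10_2 and M13_1, and for *Cd36* with limma-voom (-0.25) and in 4 of 12 fits that left out 1 mouse; the other 198 log2 fold changes kept their direction. Limma-voom gave larger differences for *Apoa1* (-3.25), *Apoa4* (-3.78), *Npc1l1* (-2.14) and *Fabp2* (-1.33), and the cause was not tested. With 1 mouse left out, the log2 fold change ranged from -2.57 to -0.44 for *Apoa1*, -2.67 to -0.062 for *Apoa4*, -0.98 to -0.55 for *Apob*, -0.74 to -0.24 for *Mttp*, -1.67 to -0.98 for *Fabp1*, -0.62 to -0.093 for *Fabp2*, -0.61 to 0.21 for *Cd36*, -2.15 to -0.44 for *Npc1l1*, -0.83 to -0.094 for *Apoc3* and 1.88 to 2.32 for *Apon*. Halved counts, chosen after seeing the data, put *Apon* under the filter, and without a filter gave it 2.06. The stricter filter (1 CPM in 6 mice) removed the lowest genes, so that it gave them no value. No paired analysis was possible because the labels name mice and do not say that any part of a name pairs them across genotypes. The low genes rest on few counts, which limits their precision.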
